A study of Mus musculus with 10 samples.

Results

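The voltage-gated potassium channels and their auxiliary subunits were examined in dorsal and ventral mossy cell (MC)-enriched translatomes of the mouse hippocampus. Members were the protein-coding genes whose symbol begins with Kcna, Kcnb, Kcnc, Kcnd, Kcnf, Kcng, Kcnh, Kcnq, Kcns or Kcnv and a number, with Kcnab, with Kcne and a number, or with Kcnip and a number. The rule found 52 of the 21998 protein-coding genes in the count files, and 43 of them passed the expression filter, which required a CPM (counts scaled to the library's total) above 1 in at least 2 libraries. No measured value entered the rule.

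Translating ribosome affinity purification (TRAP) precipitates messenger RNA bound to ribosomes that carry an EGFP tag on subunit L10a. All 10 libraries came from C57BL/6 mice of the genotype Drd2-Cre;Eef1a1LSL.eGFPL10a/+, male and about 10 weeks old, and the labels separate them by the part of the hippocampus alone: 5 libraries are dorsal and 5 are ventral, each from the pooled tissue of 5 mice, without any treatment. Cre follows Drd2, the dopamine D2 receptor gene, and per the study also acts in some interneurons and ventral subiculum neurons. The ventral subiculum was removed at dissection. The study's methods divide each hippocampus into both parts and pool 5 mice per assay. By the number of mice given there, both regions draw on the same animals. The labels do not say which dorsal and ventral pools share mice, and the main test treated all pools as independent. No sample of unprecipitated RNA was analysed here, and the p-values measure the spread between pools.

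Counts on genes ranged from 11138676 to 20594364 per library, and the share of read pairs on no gene was 21.8% to 33.9% in dorsal and 11.6% to 19.3% in ventral libraries (two-sided exact permutation test, p = 0.00794, the smallest that 5 against 5 allows). Drd2 itself was at 31.7, 24.4, 23.3, 31.3 and 29.6 CPM in the dorsal and 18.3, 27.9, 17.5, 18.1 and 21.6 CPM in the ventral libraries. The MC markers were present, except Csf2rb2, which did not pass the filter. Gad2, an enzyme of GABA synthesis that marks interneurons, stood at 485 ± 76.9 (SD, n = 5) dorsal and 539 ± 69.1 ventral RPKM (CPM divided by the exonic length in kilobases), against 11.0 ± 1.55 and 8.13 ± 1.71 RPKM for Drd2. The interneuron markers Gad1 (33.6 ± 5.72 and 46.4 ± 4.63 RPKM) and Slc32a1 (18.4 ± 1.75 and 19.4 ± 3.19 RPKM) stood far below Gad2. Sst stood above it, at 628 ± 22.5 and 990 ± 184 RPKM. Some marker lists moved with the region. The summed CPM of 7 MC markers was 401 to 497 dorsal and 1034 to 1271 ventral, with 1 called dorsal- and 2 ventral-enriched. Calb2, the calretinin gene, carried most of the ventral sum but little of the dorsal sum, at 65.0 ± 9.30 dorsal and 615 ± 94.4 ventral CPM. Satb1, the other ventral call, carried most of the dorsal sum, at 270 ± 28.8 and 449 ± 33.2 CPM. Cyp26b1, the dorsal call, went the other way at 60.4 ± 7.42 and 28.8 ± 5.29 CPM. For 10 interneuron markers the summed CPM was 3403 to 4539 dorsal and 4169 to 5419 ventral, with overlap. Of these, 3 were called ventral-enriched (Lhx6, Pvalb and Sst). Gad2 carried most of the sum in both regions, at 2848 ± 452 and 3168 ± 406 CPM. It was not called (log2 fold change -0.15, edgeR adjusted p = 0.353). Summed CPM of 6 oligodendrocyte markers was 2195 to 2569 dorsal and 791 to 1451 ventral, with 3 of 6 called dorsal-enriched, and that of 4 CA3 pyramidal markers 95.3 to 118 and 56.4 to 80.3. Bok made up most of the CA3 sum, at 96.8 ± 8.60 and 53.5 ± 10.1 CPM, and was the only 1 of the 4 called. Their part in the differences below was not tested. In these bulk samples, fewer cells of a type and less RNA per cell cannot be told apart.

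Voltage-gated potassium channels open when the membrane depolarizes and let potassium leave the cell, which repolarizes the action potential and sets how readily a neuron fires again. Each channel is a ring of 4 pore-forming subunits. Kv1 and Kv4 channels pass current near the firing threshold, Kv2 channels carry delayed rectifier current, Kv3 channels allow fast repolarization, and Kv7 channels carry the M-current that restrains repeated firing. Modulatory subunits of the Kcnf, Kcng, Kcns and Kcnv genes join Kv2 subunits, and Kcnab, Kcne and Kcnip proteins attach to the pore-forming subunits as auxiliaries.

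The selectivity filter, a stretch of 5 amino acids that lets potassium pass, was located in the coding sequence of all 40 pore-forming and modulatory members and in none of the 12 auxiliaries. The windows of 5 called members are shown because this stretch is common to all pore-forming subunits, whichever way the gene differed between regions. Each window has 45 bases of coding sequence, 5′ to 3′ on the gene's strand, within 1 coding exon unless an intron is given (GRCm38, as all coordinates here), with the 15 bases of the filter in capitals.
Kcna1 (chr6:126642216-126642260, minus): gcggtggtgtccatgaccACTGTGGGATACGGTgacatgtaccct
Kcna6 (chr6:126738635-126738679, minus): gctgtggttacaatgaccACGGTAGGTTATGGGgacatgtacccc
Kcnc4 (chr3:107447787-107447831, minus): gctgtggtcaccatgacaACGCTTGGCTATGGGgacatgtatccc
Kcnd2 (across an intron within chr6:21217388-21714153, plus): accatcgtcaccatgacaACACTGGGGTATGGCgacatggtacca
Kcnh7 (chr2:62777331-62777375, minus): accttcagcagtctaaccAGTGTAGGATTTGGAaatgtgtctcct

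The filter read threonine, then valine, isoleucine or leucine, then glycine, tyrosine, glycine in 32 members, and had serine in place of threonine and phenylalanine in place of tyrosine in 7 of the 8 Kcnh genes, as in Kcnh7 above. The remaining Kcnh gene, Kcnh5, had threonine and phenylalanine. Of the printed windows, Kcna6 and Kcnc4 were the most alike, with 38 of 45 bases shared, followed by Kcna1 and Kcna6 with 35. Kcna1 and Kcna6 each shared 29 bases with Kcnd2, and Kcnh7 shared 22 to 23 with each of the other windows.

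Of the 43 tested members, 7 were called dorsal-enriched, among them Kcna1, Kcnd2, Kcnh7 and Kcnip2, and 3 ventral-enriched, among them Kcna6 and Kcnc4. A call required an adjusted p below 0.05 in edgeR's quasi-likelihood test, adjusted over all 16806 tested genes, together with group means of CPM, each raised by 1, whose log2 ratio exceeded 0.58 in size. These shares, 16.3% and 6.98%, lie near the 13.2% and 8.38% of all tested genes called dorsal- and ventral-enriched. All members are protein-coding. Among tested protein-coding genes the same fit called 9.54% dorsal-enriched, below the members' 16.3%, and 8.96% ventral-enriched. These differences in share were not tested. Dorsal and ventral libraries did not overlap in CPM for 9 tested members (20.9%), against 18.2% of all tested genes. The median log2 fold change, dorsal over ventral, was 0.10 over the tested members, -0.01 over all tested genes and -0.04 over the protein-coding ones, and 24 members lay above 0 and 19 below.

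**Figure D1:**
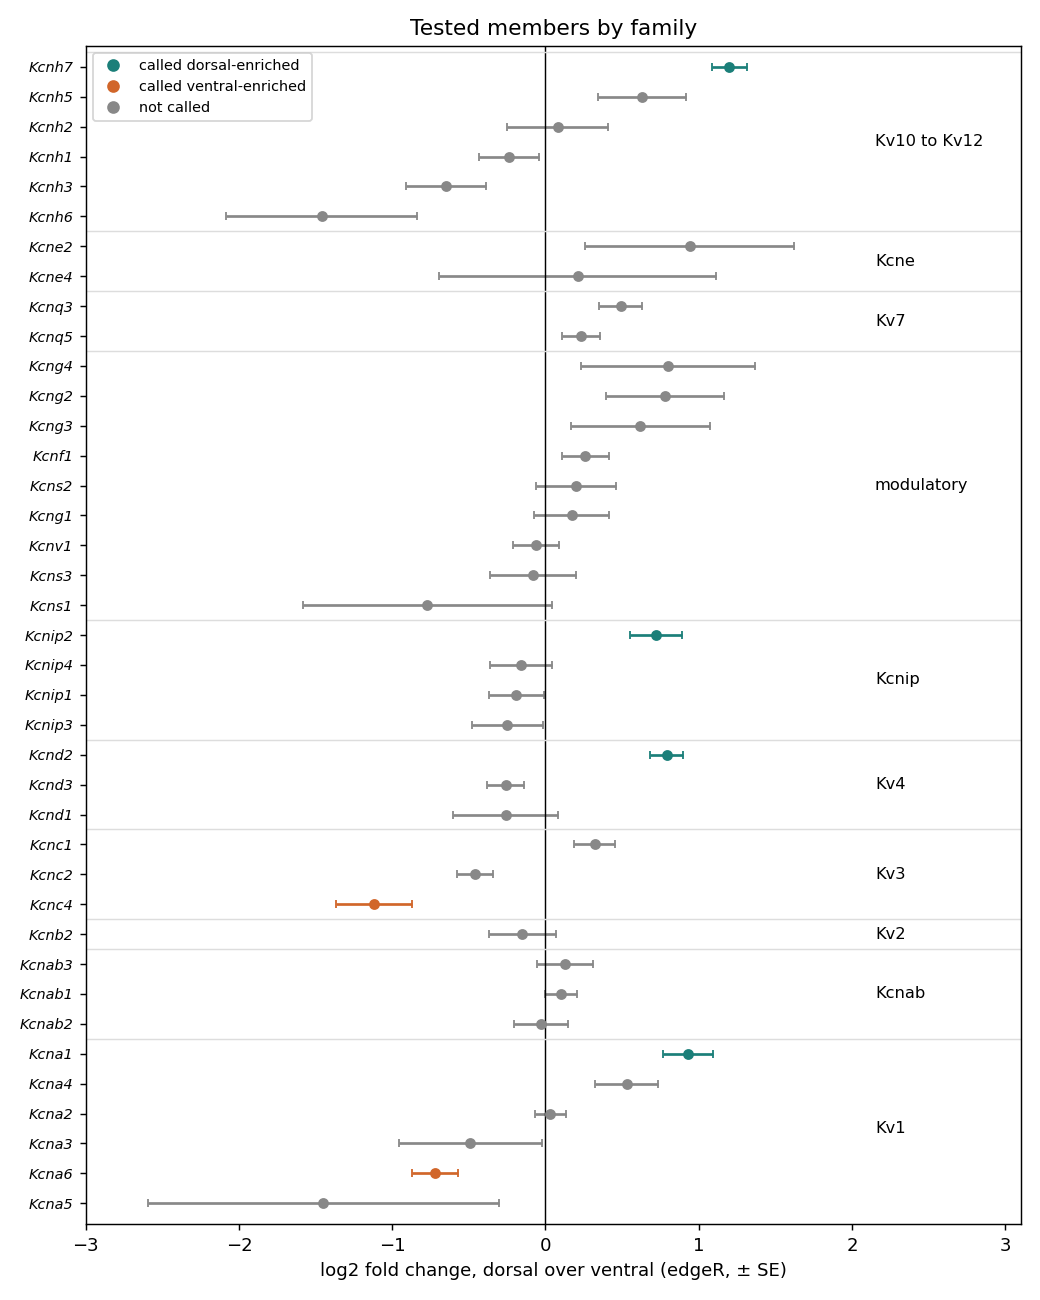
Log2 fold change, dorsal over ventral, with its standard error (edgeR) for 39 of the 43 tested members, grouped by family. Teal marks 4 members called dorsal-enriched, orange 2 called ventral-enriched and grey the 33 not called, and in Kv1 calls of both directions stand within 1 family.

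Kv4 channels carry the fast A-type current of dendrites, and Kcnd2 (Kv4.2) was the leading gene of the family in both regions. Kcnd2 (ENSMUSG00000060882, chr6:21215503-21729805) had 204, 175, 174, 189 and 194 CPM in the dorsal and 135, 96.5, 109.8, 104 and 96.7 CPM in the ventral libraries. All dorsal libraries lay above all ventral ones, with a log2 fold change of 0.79 (SE 0.11, edgeR adjusted p = 0.000375). Its sister Kcnd3 (Kv4.3) stood at 9.14 ± 1.32 dorsal and 11.0 ± 1.16 ventral RPKM and did not pass the test (log2 fold change -0.26, edgeR adjusted p = 0.121). Kcnd2 made up 72.9% to 81.0% of the summed RPKM of the 3 Kv4 genes in dorsal libraries and 60.1% to 68.4% in ventral ones. Kcnd1 remained a small part of the family at 0.938 ± 0.366 and 1.12 ± 0.370 RPKM.

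Kcnip genes encode KChIPs, calcium-binding proteins that attach to Kv4 subunits and carry them to the membrane. Kcnip2 (ENSMUSG00000025221, chr19:45791839-45816061) had 63.9, 97.3, 112, 84.8 and 91.5 CPM in dorsal and 37.8, 54.0, 64.4, 54.4 and 63.4 CPM in ventral libraries. One dorsal library, at 63.9 CPM, fell within the ventral range, and the other dorsal libraries were above it. The log2 fold change was 0.72 (SE 0.17, edgeR adjusted p = 0.00792). Kcnip4, the KChIP gene with the highest level per length over all 10 libraries (23.6 ± 5.21 dorsal and 26.2 ± 8.48 ventral RPKM, beside 25.9 ± 5.07 and 15.8 ± 3.08 RPKM for Kcnip2), had 105, 103, 61.5, 85.8 and 72.3 CPM dorsal and 147, 88.9, 74.8, 93.6 and 70.7 CPM ventral, with wide overlap (log2 fold change -0.16, edgeR adjusted p = 0.602). Kcnip1 and Kcnip3 did not pass the test either, at log2 fold changes of -0.19 and -0.25. The log2 ratio of Kcnd2 to Kcnip2 CPM overlapped between regions, at 0.64 to 1.67 dorsal and 0.61 to 1.84 ventral.

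Kv7 genes had the highest summed RPKM of the families on average in both regions. In dorsal replicate 2 and ventral replicates 1 and 4 the Kcnip sum was higher. Most of the Kv7 sum was Kcnq3 (Kv7.3), the highest of all 52 members per length. Kcnq3 had 1271, 669.6, 1054, 1098 and 1115 CPM in dorsal and 779.8, 744, 825, 635 and 719 CPM in ventral libraries. The dorsal library at 669.6 CPM lay among the ventral ones and the other dorsal libraries above them. Kcnq3 passed the adjusted p but not the fold threshold (log2 fold change 0.49, SE 0.14, edgeR adjusted p = 0.0212). Without that dorsal library, replicate 2, its log2 fold change was 0.62 and it was called dorsal-enriched. Its log2 fold change was 0.26 after correcting for GC content and length, and the adjusted p was then not passed (edgeR, 0.166).

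Kcnq5 stood at 6.85 ± 0.757 and 5.84 ± 0.654 RPKM and did not pass (edgeR adjusted p = 0.185). Kcnq1, the cardiac Kv7 gene, did not pass the filter.

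**Figure D2:**
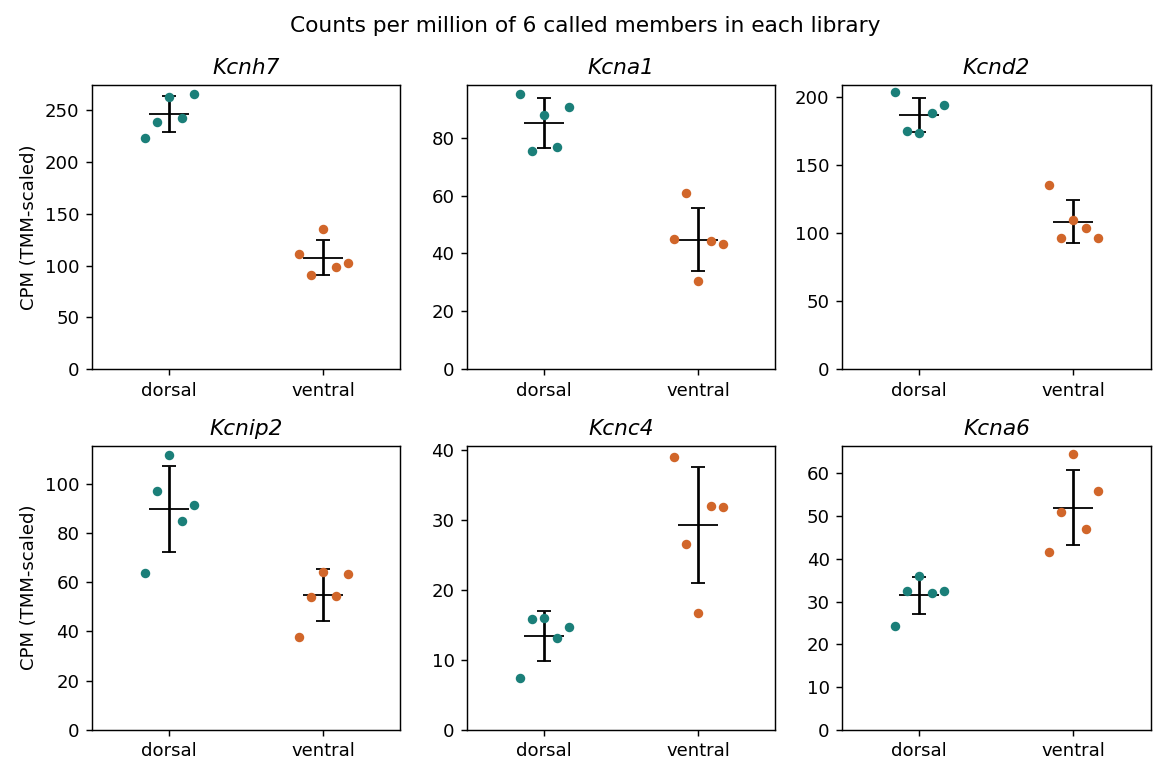
CPM of 6 called members, with 1 point for each library and the mean ± SD of the 5 libraries of a region in black. Kcnh7, Kcna1 and Kcnd2 have all dorsal points above the ventral ones, Kcnc4 and Kcna6 the reverse, and Kcnip2 overlaps.

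Among Kv1 genes, which encode axonal low-threshold channels, calls went in both directions. Kcna1 (Kv1.1, ENSMUSG00000047976, chr6:126640397-126646384) had 95.1, 75.4, 87.9, 76.7 and 90.7 CPM dorsal and 45.1, 61.0, 30.5, 44.2 and 43.2 CPM ventral. The regions did not overlap, and the log2 fold change was 0.93 (SE 0.16, edgeR adjusted p = 0.00135). Kcna6 (Kv1.6, ENSMUSG00000038077, chr6:126708329-126740674), a neighbour on chromosome 6, had 24.3, 32.4, 35.9, 32.1 and 32.4 CPM dorsal and 41.6, 51.0, 64.5, 47.0 and 55.9 CPM ventral. Every ventral library was above every dorsal one (log2 fold change -0.72, SE 0.15, edgeR adjusted p = 0.00398). The value for Kcna6 is uncertain because 39.6% of its exonic length overlaps Gm26673 on the opposite strand and the library kit does not mark strand.

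Kcna2 (Kv1.2), the Kv1 gene with the highest level per length over all 10 libraries, had 293, 255, 281, 257 and 264 CPM dorsal and 239, 242, 320.5, 243 and 279.7 CPM ventral. The regions overlapped (log2 fold change 0.03, SE 0.10, edgeR adjusted p = 0.862). The log2 ratio of Kcna1 to Kcna2 CPM was therefore -1.76 to -1.54 in dorsal and -3.39 to -1.99 in ventral libraries, without overlap. Kcna4 (Kv1.4), an inactivating subunit, stood at 23.1 ± 7.51 dorsal and 15.9 ± 2.29 ventral RPKM, beside 22.7 ± 1.39 and 22.2 ± 2.97 RPKM for Kcna2, and did not pass (log2 fold change 0.53, edgeR adjusted p = 0.066). Without dorsal replicate 1 or without dorsal replicate 2 it was called dorsal-enriched, at 0.66 each (edgeR adjusted p = 0.0209 and 0.0216). Kcna3 and Kcna5 did not pass, and Kcna7 and Kcna10 were below the filter. Of the Kcnab genes, which encode the cytoplasmic β subunits of Kv1 channels, none was called, and Kcnab2, the highest, had 79.4, 124, 169, 171 and 166 CPM dorsal and 128, 144, 135, 156 and 159 CPM ventral (log2 fold change -0.03, edgeR adjusted p = 0.929). The dorsal library at 79.4 CPM was below all others. No Kcnab gene had an unadjusted p below 0.05 in edgeR, and DESeq2 called none.

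Among Kv3 genes, whose channels are found in fast-firing neurons, Kcnc4 (Kv3.4, ENSMUSG00000027895, chr3:107438303-107459552) had 7.32, 15.9, 15.985, 13.1 and 14.7 CPM dorsal and 39.0, 26.6, 16.7, 32.0 and 31.9 CPM ventral. The regions did not overlap, although the lowest ventral library came close to the dorsal ones, and the log2 fold change was -1.12 (SE 0.25, edgeR adjusted p = 0.00551).

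Kcnc2 (Kv3.2), the Kv3 gene with the highest level per length, had 141, 130.1, 105, 119.6 and 121 CPM dorsal and 171, 150.1, 209, 152 and 168 CPM ventral. Every ventral library was above every dorsal one, and the log2 fold change of -0.46 (SE 0.12, edgeR adjusted p = 0.0103) was short of the fold threshold. Kcnc1 (Kv3.1), at 10.1 ± 1.44 and 8.14 ± 1.19 RPKM, did not pass (edgeR adjusted p = 0.0902). The summed CPM of the interneuron markers was higher ventrally on average, with overlap between regions. Lhx6, Pvalb and Sst were called ventral-enriched, while Gad2, Slc32a1 and Vip did not pass the test. Their part in the values of Kcnc2 and Kcnc4 was not tested.

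**Figure D3:**
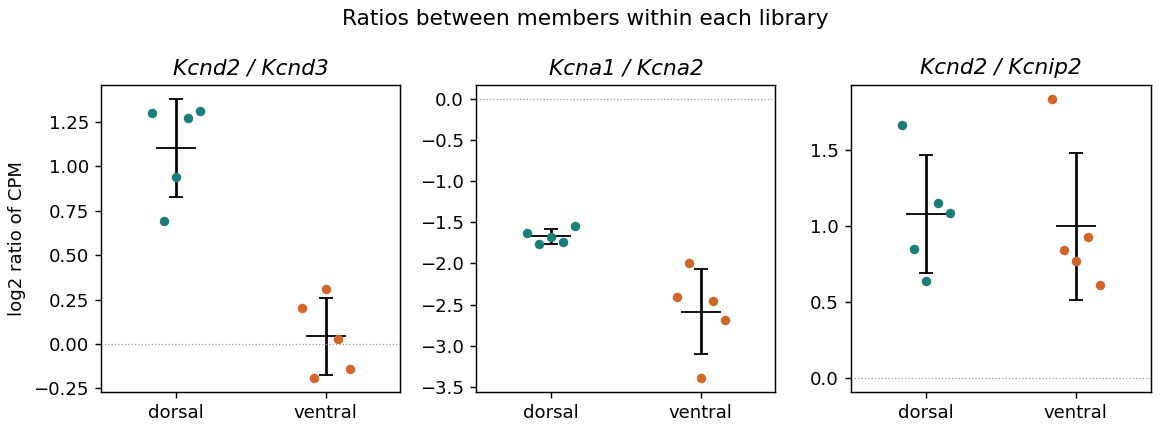
Log2 ratio of the CPM of 2 members within the same library, for 3 pairs chosen after the values of the members were seen, with 1 point for each library and the mean ± SD of a region in black. The regions separate for Kcnd2 to Kcnd3 and Kcna1 to Kcna2, and overlap for Kcnd2 to Kcnip2.

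Kcnb2 (Kv2.2), a delayed rectifier subunit at 4.12 ± 0.817 and 4.59 ± 1.49 RPKM, did not pass (edgeR adjusted p = 0.63).

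None of the 9 tested modulatory genes was called by edgeR or by DESeq2, and 0 had an unadjusted p below 0.05 in edgeR. Kcnv1 (Kv8.1), the highest per length, had 42.5, 29.6, 30.1, 30.6 and 31.6 CPM dorsal and 37.9, 40.3, 33.3, 31.8 and 28.5 CPM ventral, with overlap (log2 fold change -0.06, edgeR adjusted p = 0.783). Kcng2 (Kv6.2) had 3.85, 4.34, 4.76, 3.84 and 5.25 CPM dorsal and 0.775, 2.90, 2.61, 3.28 and 3.25 CPM ventral. Its regions did not overlap, but the test was not passed (log2 fold change 0.78, SE 0.38, edgeR adjusted p = 0.141), and it rests on 14 to 70 counts per library.

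Kcnh7 (Kv11.3, ENSMUSG00000059742, chr2:62693414-63184287), of the ERG channels, which pass current as the membrane repolarizes, had the lowest adjusted p of all members. It had 223, 239, 262, 243 and 266 CPM dorsal and 111, 90.8, 136, 98.4 and 103 CPM ventral. The lowest dorsal library was above the highest ventral one, with a log2 fold change of 1.20 (SE 0.11, edgeR adjusted p = 3.41e-05). Under other ways of processing, its log2 fold change was as low as 0.81, with the call kept. The related Kcnh2 (Kv11.1) and Kcnh6 (Kv11.2) did not pass, at log2 fold changes of 0.08 and -1.46. The value for Kcnh6 rests on 6 to 50 counts per library. Its ventral replicate 2 was at 4.39 CPM, and the other ventral libraries were at 0.674 to 1.39 CPM. Kcnh4 (Kv12.3) was below the filter, with 0.282, 0.195, 0, 0.0599 and 0.0784 CPM dorsal and 0.443, 0.615, 0.590, 0.758 and 0.848 CPM ventral. All its ventral libraries were above the dorsal ones, on at most 18 counts.

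Kcne genes encode single-span β subunits and were near the filter. Kcne2, the highest per length, had 2.44, 1.82, 0.476, 0.899 and 1.18 CPM dorsal and 0.277, 0.176, 1.52, 0.505 and 1.04 CPM ventral. The regions overlapped and the test was not passed (log2 fold change 0.94, SE 0.68, edgeR adjusted p = 0.321). Choroid plexus, where Kcne2 is known to be expressed, had 6 markers summing to 131 to 998 CPM dorsal and 193 to 435 CPM ventral, most of it Ttr. Of these, 3 were called dorsal-enriched (Aqp1, Clic6 and Kl) and 0 ventral-enriched, and their part was not tested.

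The 25 tested members not named by the rule for full values had log2 fold changes from -1.46 to 0.80, and their lowest adjusted p was 0.066. Their mean levels ranged from 0.205 to 19.5 RPKM. The 9 members below the filter reached at most 1.44 CPM in any library.

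Summed over a family, the level per length of Kv4 genes was 43.7 to 49.5 RPKM dorsal and 31.0 to 40.1 RPKM ventral. That of Kv10 to Kv12 genes was 21.5 to 27.0 and 15.01 to 17.8 RPKM. The Kv3 sum went the other way, at 34.2 to 38.8 dorsal and 41.2 to 44.6 ventral. These 3 sums did not overlap between regions, and their genes with the highest level per length were Kcnd2, Kcnh7 and Kcnc2. A sum does not stand for each gene of its family. Log2 fold changes lay above 0 for 1 and below 0 for 2 tested Kv4 genes, and for 3 and 3 of Kv10 to Kv12. In Kv3, Kcnc1 lay above 0 (log2 fold change 0.32), while Kcnc2 and Kcnc4 lay below. Kcnh7 alone made up 65.6% (dorsal mean) and 44.6% (ventral mean) of the Kv10 to Kv12 sum. Kv7 sums were 68.6 to 109 RPKM dorsal and 61.0 to 72.2 ventral, and those of Kcnip genes 65.2 to 72.3 and 58.3 to 73.7.

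**Figure D4:**
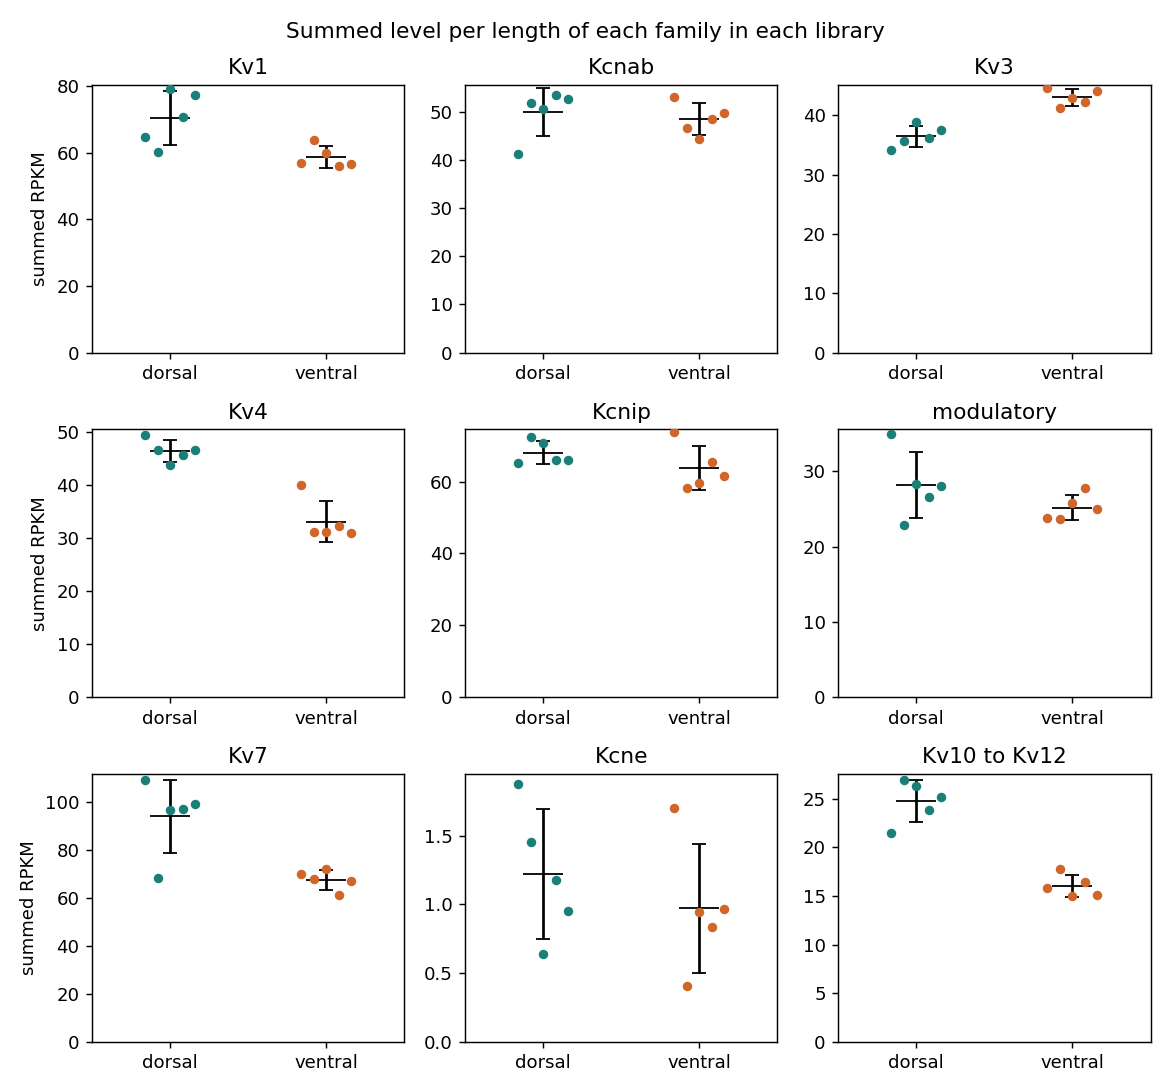
Summed RPKM of the members of 9 families, with 1 point for each library and the mean ± SD of a region in black, each panel on its own scale from 0. Kv4 and Kv10 to Kv12 lie higher in all dorsal libraries and Kv3 in all ventral ones, and Kv7 is the most abundant family on average in both regions.

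Among 22 genes for proteins that bind, anchor or regulate these channels, edgeR called 1 higher dorsally and 0 higher ventrally. These shares, 4.55% and 0%, stand beside 13.2% and 8.38% of all tested genes. At an unadjusted p below 0.05, 4 were higher ventrally, and DESeq2 called 1 of them, Pias3. DESeq2 also called Kcnrg, which was higher dorsally. Adam23, a receptor of the Lgi1 protein in Kv1 complexes, had 131, 118, 153, 141 and 154 CPM dorsal and 82.7, 104, 87.8, 77.5 and 85.1 CPM ventral. The regions did not overlap (log2 fold change 0.67, SE 0.11, edgeR adjusted p = 0.00111). Its call was lost under the correction for GC content and length. Adjusted p was below 0.05 without the fold threshold for 6 of the 22, of which 4 were higher dorsally (18.2%) and 2 ventrally (9.09%), near the 16.0% and 12.4% of all tested genes. Besides Adam23, those higher dorsally were Lgi1 (log2 fold change 0.55, edgeR adjusted p = 0.000875), Adam22 (0.42, 0.00418) and the Kv4 partner Dpp6 (0.36, 0.0186). Those higher ventrally were the Kv2 partners Vapb (-0.46, 0.00735) and Vapa (-0.41, 0.0342).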

How the data were processed

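Ribosome-bound RNA was amplified with the Ovation kit and made into TruSeq libraries, which do not mark strand, and sequenced as 50 bp pairs. Per the labels, the authors aligned reads to GRCm38 with STAR 2.5.2b and counted them with HTSeq 0.7.2. The deposited values are raw counts per gene, 1 file per library. Of 54838 gene identifiers, 54809 matched GENCODE M21, which gave symbols and lengths. Pairs on no gene were left out of library sizes. A floor of 3 counts corresponds to 0.146 to 0.269 CPM and covers counting error only.

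The test was edgeR 4.0.16 under R 4.3.3: CPM above 1 in at least 2 libraries, TMM, quasi-likelihood test with Benjamini-Hochberg adjustment over 16806 genes, group as the only term. An SE was taken as the size of the log2 fold change over the root of its F statistic. The quasi-likelihood dispersions were those of edgeR 3, the package default. Those of edgeR 4 were run first, and were replaced after both results had been seen because they made more false calls than the nominal rate on simulated data.

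Some members are not reported here. Full values are given for the other called members, the highest member per length of each family, uncalled members whose groups did not overlap, members gained under the replicate block or GC and length correction, and called partner genes. Other genes named with a log2 fold change alone were chosen after their values were seen. Members and lists were chosen with earlier results of these data known. Alternatives included DESeq2 1.42.0, other scalings, filters and thresholds, and leaving out each library.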

Additional observations from a re-analysis of the deposited data

Results flagged for a closer look

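In 2 of 38 groups of 5 libraries tested for the named members, 1 library stood far from the other 4 (Dixon's criterion), and chance alone flags about 1 in 20 groups. Kcng2 was at 0.775 CPM in ventral replicate 1, and the other ventral libraries were at 2.61 to 3.28 CPM. Kcnv1 was at 42.5 CPM in dorsal replicate 1, and the other dorsal libraries were at 29.6 to 31.6 CPM.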

How the results depend on the processing

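Among the called members, Kcna1, Kcna6, Kcnc4, Kcnd2, Kcnh7 and Kcnip2 kept their call under all 15 alternatives and without any single library. Kcnq3 and Kcnc2, not called, gained a call without a fold threshold, but Kcnq3 fell to 0.263 (adjusted p = 0.166, edgeR) under the GC and length correction and to 0.238 (0.259) with the block added. Of 43 tested members, 5 and 3 were called under the GC and length correction, beside 11.7% and 10.3% of all tested genes. At an adjusted p below 0.01, 6 and 2 were called, beside 7.15% and 4.33%. Leaving out 1 library gave 6 to 9 members called dorsal-enriched and 2 to 3 ventral-enriched. The shares of all tested genes were then 10.4% to 14.2% and 5.94% to 9.42%. The median log2 fold change of the members, 0.099, was 0.139 with upper-quartile factors, 0.151 with the stricter filter (CPM above 1 in at least 5 libraries), and 0.053 to 0.132 without 1 library. Libraries of equal replicate number hardly shared deviations from their region's mean (correlation -0.0317 to 0.0695). This cannot show whether they share mice. With the replicate block the median was 0.058 with 7 and 3 members called, beside 11.6% and 7.29% of all tested genes. The block with the GC and length correction gave 0.019 with 5 and 3, beside 10.3% and 9.12%.

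Of the partner genes, edgeR called 1 dorsal- (4.55%) and 0 ventral-enriched, beside 13.2% and 8.38% of all tested genes. The dorsal count was 2 with upper-quartile factors, DESeq2, the likelihood-ratio test or edgeR 4 dispersions (made an alternative after seeing the data), 4 without a fold threshold, and 0 under the GC and length correction with or without the block. The ventral count was 1 with DESeq2, the likelihood-ratio test, edgeR 4 dispersions and the GC and length correction with or without the block, and 2 without a fold threshold. Without 1 library it was 1 to 2 dorsal (2 without dorsal replicate 1 or 4) and 0 to 1 ventral (1 without ventral replicate 3). The cause was not tested.

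Among the named members, signs turned for Kcna2, Kcnab2 and Kcnip4, which were called in no setting. Kcna2 was at -0.150 under the GC and length correction, -0.146 with the block added, and between -0.008 and 0.10 without 1 library. Kcnab2 was at 0.001 with DESeq2 size factors and the DESeq2 test, 0.015 with upper-quartile factors, 0.037 and 0.019 under the correction without and with the block, and -0.10 to 0.13 without 1 library. Kcnip4 was at 0.057 without ventral replicate 1, from -0.241 to 0.057 without 1 library, -0.376 under the correction, and -0.351 with the block added (edgeR adjusted p = 0.0495). With transcript length in place of exonic length, the highest member was the same in 10 of 10 families. Members below about 10 CPM, such as Kcng2 and Kcne2, rest on few counts. All genes called numbered 2217 and 1408, and 1201 and 728 at an adjusted p below 0.01.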
